A study of Homo sapiens with 26 samples.

Results

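The 10 genes described here are listed as genes of the eosinophil, a granulocyte of blood and tissue. The products of CLC, EPX, PRG2, PRG3, RNASE2 and RNASE3 fill its granules or cytoplasm. IL5RA, CCR3, ADGRE1 and SIGLEC8 encode its surface receptors. Not all of the 10 are particular to it, since SIGLEC8 is also a gene of mast cells. The 10 genes were taken by name and not by a threshold on measured values, but with earlier results of these data known. Each matched 1 of the 57773 genes of the deposited table. RNA sequencing had been done on clones of TF-1, a human erythroleukemia line whose growth needs the cytokine GM-CSF. Clones F4 and A12 are labelled TET2 -/- (KO), and clones A7 and C4 are labelled TET2 +/+ (WT); TET2 oxidises 5-methylcytosine in DNA. Cells were given 200 nM 5-azacytidine (Aza), a cytidine analogue that is built into nucleic acids and traps DNA methyltransferases, or DMSO, its solvent, on each of 3 days. RNA was collected ahead of any treatment, then at 72 h and again at 264 h from the first dose. Batch 1 held 20 libraries, with each clone once in each of 5 conditions (pre-treatment, DMSO and Aza at 72 h, DMSO and Aza at 264 h). Batch 2 held 6 more of the KO clones, in DMSO at 72 h and 264 h and in a pre-treatment set that is also labelled DMSO and was kept as a group of its own. All Aza libraries are therefore of batch 1, 1 for each clone and time.

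Each genotype is represented by 2 clones of 1 line, and no label says that libraries of a clone came from separate cultures, so p-values measure the spread between these libraries. The library of clone F4 in DMSO at 72 h in batch 1 is marked as failing quality control and was left out, so that 25 libraries remain and F4 at 72 h is compared with DMSO of batch 2 alone. The labels of the 2 WT pre-treatment libraries go against the rest: their deviations from the group mean over 1000 variable genes correlated with those of the later libraries of the same clone name at -0.731 to -0.682, while the later WT libraries correlated among themselves at 0.655 to 0.731 and the KO libraries at 0.751 to 0.803. Results that change when these labels are exchanged, or when the 2 libraries are left out, are given with those values. The 25 libraries held 24992192 to 40187322 counts (median 27477937), so that 3 counts, taken as the floor, correspond to 0.0729 to 0.119 CPM (counts scaled to the effective library size). TET2 RNA was counted over all its exons at 24.9 to 46.4 CPM in KO (median 32.2, n = 15) and 22.4 to 29.9 CPM in WT (median 28.8, n = 10), which does not check the genotype labels. GATA1, a defining factor of the erythroid lineage, was at 75.6 to 115 CPM in the 17 libraries without Aza.

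Eosinophils arise in bone marrow from myeloid progenitors under interleukin 5, with GATA1, C/EBP factors and PU.1 (the product of SPI1) acting at controlled levels. While maturing, they fill specific granules with a cationic core of major basic protein and a matrix of peroxidase and ribonucleases. They then carry receptors for interleukin 5, eotaxins and sialylated ligands. TF-1 cells are not eosinophils: they are progenitor-like cells of the erythroid and myeloid branches, and the libraries are from bulk cells. A higher level of a gene in bulk RNA can come from more cells that express it or from more RNA per cell, and these cannot be told apart here.

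RefSeq promoter windows (GRCh38.p14), running from 250 bases before to 50 bases after a transcript start, were at hand for 8 of the 10 genes. The 250 bases before the start are shown for CLC and PRG3, which gave the largest changes of the granule genes that had a window, and for IL5RA, the receptor of the eosinophil growth factor. Capitals mark matches to TGATAA or AGATAA (letters bound by GATA factors) or to TTNNGNAA (letters bound by C/EBP factors), searched on both strands, and each sequence is printed 5′ to 3′ on the strand of its gene.
CLC, chr19:39738030-39738279, minus strand: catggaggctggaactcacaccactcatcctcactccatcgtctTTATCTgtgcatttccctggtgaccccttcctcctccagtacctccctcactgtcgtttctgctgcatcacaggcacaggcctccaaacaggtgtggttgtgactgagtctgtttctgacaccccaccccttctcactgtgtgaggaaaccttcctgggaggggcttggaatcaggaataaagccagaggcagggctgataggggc
PRG3, chr11:57381151-57381400, minus strand: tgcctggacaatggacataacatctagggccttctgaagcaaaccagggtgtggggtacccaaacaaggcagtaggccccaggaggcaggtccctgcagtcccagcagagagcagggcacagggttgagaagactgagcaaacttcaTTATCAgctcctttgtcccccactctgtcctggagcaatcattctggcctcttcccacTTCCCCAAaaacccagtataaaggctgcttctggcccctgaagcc
IL5RA, chr3:3110375-3110624, minus strand: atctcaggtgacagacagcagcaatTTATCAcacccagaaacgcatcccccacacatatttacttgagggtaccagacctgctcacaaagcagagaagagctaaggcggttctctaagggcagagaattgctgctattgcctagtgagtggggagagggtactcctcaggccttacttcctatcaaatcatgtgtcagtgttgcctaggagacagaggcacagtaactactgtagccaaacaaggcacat

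In the 3 windows printed, the CLC window holds AGATAA on the reverse strand, and the PRG3 and IL5RA windows each hold TGATAA on the reverse strand. The windows of RNASE2, RNASE3, CCR3, ADGRE1 and SIGLEC8 hold neither of these motifs. One or the other of these motifs was in 16.3% of the 35116 windows of the table (TGATAA in 7.5%, AGATAA in 10.3%), and TTNNGNAA was in 36.8%. TTNNGNAA matched in the windows of PRG3, RNASE2, RNASE3, CCR3 and ADGRE1, and SIGLEC8 had none of these motifs. The windows of these genes are poor in CG dinucleotides, the letters at which DNA is methylated: there were 0 in PRG3, 2 in CLC, 3 in RNASE2, 4 in IL5RA and ADGRE1, 5 in RNASE3 and SIGLEC8, and 2 and 4 in the 2 windows of CCR3. The median over all windows was 14, with quartiles of 4 and 28. A match is a run of letters and not a measured binding site, and methylation was not among the data used here.

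CLC (ENSG00000105205.6, hg19 chr19:40221890-40228668, minus strand) encodes galectin-10, the cytoplasmic protein that forms Charcot-Leyden crystals. In the 17 libraries without Aza it had 0 to 8 counts, or 0 to 0.225 CPM with a median of 0.0710 CPM. At 264 h after Aza it was at 8.32 CPM in F4, 35.0 CPM in A12, 20.8 CPM in A7 and 2.74 CPM in C4. Each of these 4 libraries lay above every library without Aza, from the smallest value, in C4, to the largest, in A12. The Aza minus DMSO difference at 264 h was a log2 of 7.23 in KO (SE 0.61, adjusted p = 9.09e-05) and 8.02 in WT (SE 0.81, adjusted p = 0.00039; edgeR's quasi-likelihood test with Benjamini-Hochberg adjustment over 18391 genes, as for all adjusted p here). No other of the 18391 genes had a larger log2 change at 264 h in either genotype. At 72 h, 1 to 9 counts were found with Aza (0.0372 to 0.322 CPM), with F4 (0.236) and A12 (0.322) just above the range without Aza and A7 and C4 inside it, and neither genotype passed the test (adjusted p = 0.459 in KO and 0.894 in WT).

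EPX (ENSG00000121053.5, hg19 chr17:56270098-56282535, plus strand) encodes eosinophil peroxidase, the haem enzyme of the granule matrix. It had 2 to 12 counts in each library without Aza (0.0687 to 0.343 CPM, median 0.193). With Aza at 72 h it was still at 0.315 CPM in F4, 0.322 in A12, 0.261 in A7 and 0.0792 in C4. At 264 h it reached 2.99 CPM in F4, 8.76 in A12, 27.4 in A7 and 4.29 in C4, and again no treated library overlapped the range without Aza. The difference from DMSO was a log2 of 4.44 in KO (SE 0.50, adjusted p = 0.000469) and 6.57 in WT (SE 0.60, adjusted p = 8.73e-05). A7 had the highest level and F4 the lowest, which is another order of the clones than for CLC.

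**Figure D1:**
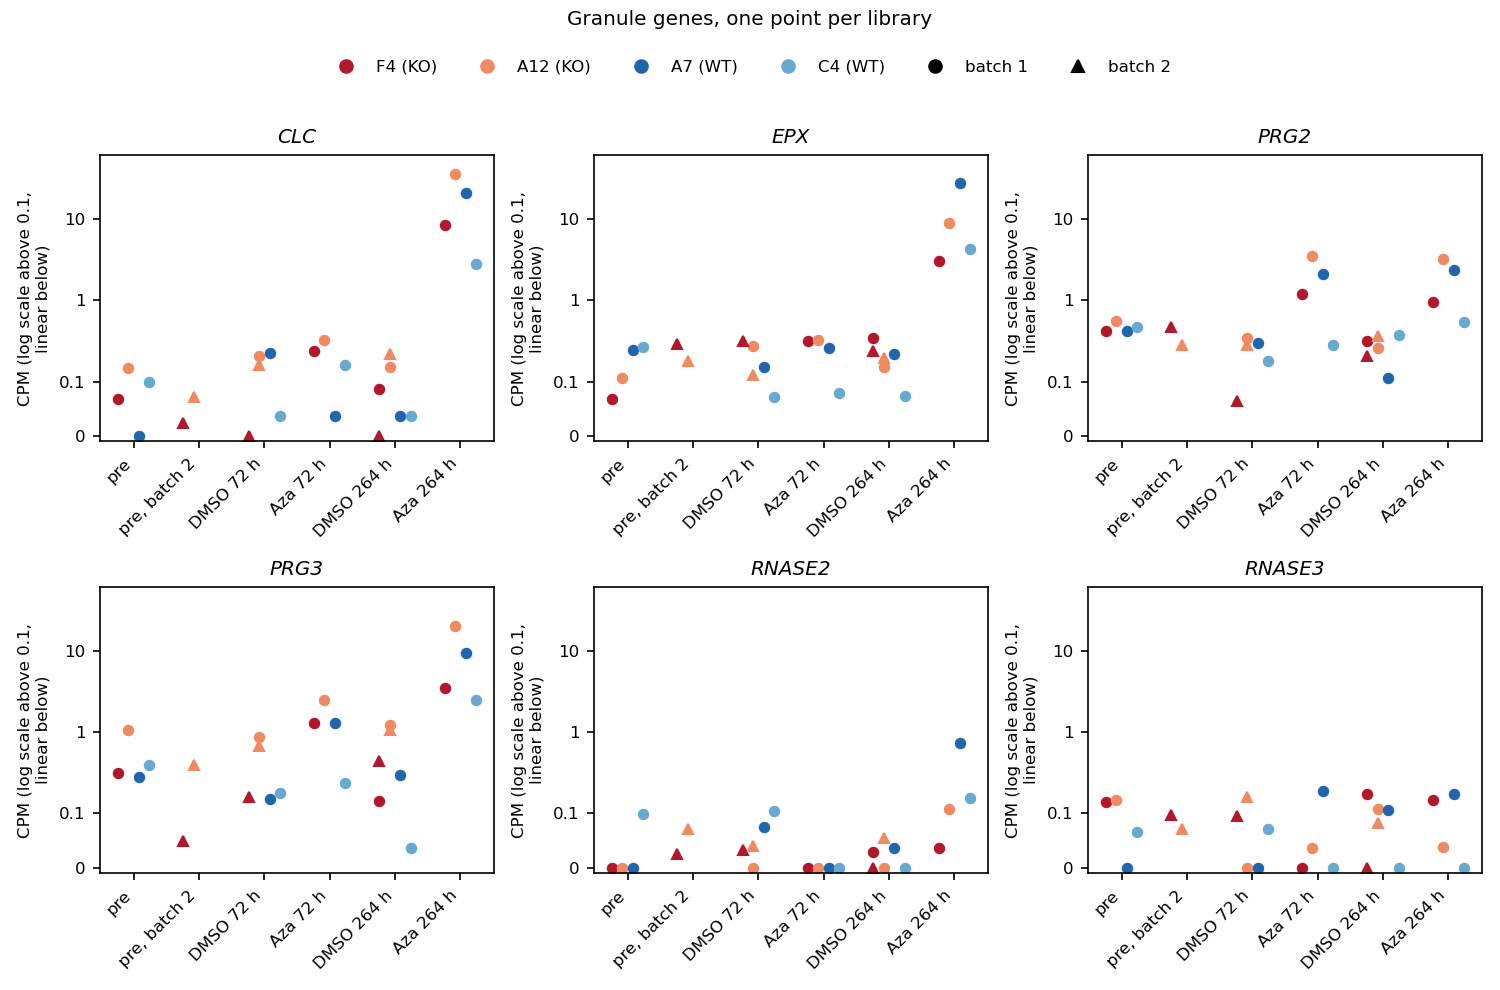
CPM of the 6 granule genes in each of the 25 libraries (y axis, logarithmic above 0.1 and linear below), by condition (x axis), with 1 point per library, colours for the clones and triangles for batch 2. CLC, EPX and PRG3 lie above every library without Aza in all 4 Aza libraries at 264 h, from 2.74 to 35.0 CPM for CLC.

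PRG3 (ENSG00000156575.2, hg19 chr11:57144242-57148623, minus strand) encodes a homologue of major basic protein. It differed between clones without Aza: A12 had 0.391 to 1.23 CPM in its 6 libraries (median 0.952), while F4, A7 and C4 had 0.0369 to 0.439 CPM. At 72 h with Aza it was at 1.30 CPM in F4, 2.50 in A12, 1.27 in A7 and 0.238 in C4. These values exceeded all libraries without Aza in F4, A12 and A7, while C4 lay inside their range. At 264 h PRG3 was at 3.43 CPM in F4, 20.0 in A12, 9.21 in A7 and 2.44 in C4, with no overlap with libraries without Aza. PRG3 rose at both times in KO: the log2 change was 2.19 at 72 h (SE 0.53, adjusted p = 0.00588) and 3.92 at 264 h (SE 0.42, adjusted p = 0.000173). In WT it passed the test at 264 h (log2 5.06, SE 0.58, adjusted p = 0.00039), and at 72 h it was at a log2 of 2.06 (SE 0.74, adjusted p = 0.0625).

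PRG2 (ENSG00000186652.5, hg19 chr11:57154267-57158130, minus strand) encodes major basic protein itself, the crystalline core of the granule, and lies 5643 bases from PRG3. It was at 0.0633 to 0.549 CPM without Aza (2 to 19 counts, median 0.315 CPM). With Aza at 72 h it was at 1.18 CPM in F4, 3.50 in A12, 2.08 in A7 and 0.277 in C4, and at 264 h at 0.949, 3.24, 2.37 and 0.541 CPM in the same order. PRG2 was thus already above every library without Aza at 72 h in F4, A12 and A7, stood at a like level at 264 h, and overlapped that range in C4 at both times. It rose in KO at 72 h (log2 3.28, SE 0.77, adjusted p = 0.00597). The other comparisons with DMSO gave a log2 of 2.56 in KO at 264 h (SE 0.66, adjusted p = 0.312), 2.15 in WT at 72 h (SE 0.80, adjusted p = 0.0779) and 2.40 in WT at 264 h (SE 0.79, adjusted p = 0.31). PRG2 shares 791 of its 1838 exon bases with an unnamed gene on the same strand (ENSG00000254979.1), and that gene had at most 9 counts in any library; the command in the file header sets no option for such bases, so PRG2 reads over them may be missing from both. No other member shares an exon base with another gene.

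RNASE2 (ENSG00000169385.2, hg19 chr14:21423611-21424595, plus strand) and RNASE3 (ENSG00000169397.3, hg19 chr14:21359558-21360507, plus strand) encode eosinophil-derived neurotoxin and eosinophil cationic protein, the granule ribonucleases. Both fell under the filter on low counts and were not tested. RNASE2 had 0 to 3 counts without Aza, 0 in all 4 Aza libraries at 72 h, and 1 count in F4, 3 in A12, 21 in A7 and 4 in C4 at 264 h. In A7, the clone with the most EPX, the 21 counts are 0.732 CPM, against 1 count in DMSO, a ratio of 20.1 (95% exact interval 3.23 to 831, counting error only). RNASE3 had 0 to 6 counts without Aza and 0 to 5 with it, so no difference was detectable at this depth. The 2 ribonuclease genes are close copies of each other, and how reads that fit both were split is uncertain.

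At 264 h, 3 of the 8 members tested (CLC, EPX and PRG3) were called higher with Aza in each genotype, and none was called lower. Over all genes tested, 0.0816% were called higher in KO and 0.0163% lower, and 0.364% were called higher in WT and 0.136% lower. The median log2 change of the 8 members was 1.83 in KO and 1.86 in WT, against -0.01 and 0 over all genes. CLC, EPX and PRG3 were also the members whose 4 Aza libraries at 264 h all lay above the 17 libraries without Aza, which held for 0.0761% of genes tested (14 of 18391). CLC and EPX passed the filter on low counts only through these Aza libraries of 264 h. In all other libraries they reached at most 0.322 and 0.343 CPM. The counts, medians and shares over the 8 members are therefore descriptions and no independent test of the set. The calls at 264 h also rest on few clones. In KO, without clone A12 (which leaves F4, assumed to vary like the other groups) 0 members were called, with log2 changes of 6.54 for CLC, 3.12 for EPX and 4.55 for PRG3, all at an adjusted p of 1; without F4 only EPX was called, and CLC (log2 7.56) had an adjusted p of 0.157 and PRG3 (3.99) of 0.0577. In WT, EPX was called in all 13 alternatives (adjusted p up to 0.0218), while CLC ran to 0.194 (0.0763 without F4, 0.187 without A12) and PRG3 to 0.48 (0.0502 without A12). With no clone term, 0 members were called in KO and 1 (EPX) in WT.

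**Figure D2:**
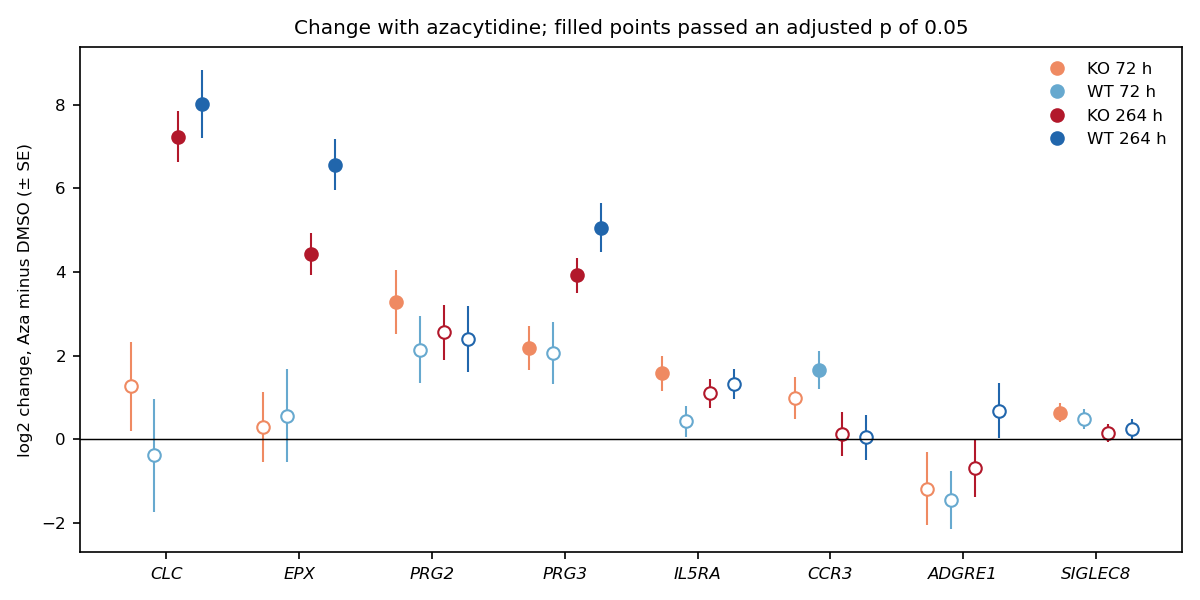
Log2 change with Aza against DMSO ± SE (y axis) for the 8 members tested (x axis), in KO and WT at 72 h and 264 h, with filled points for an adjusted p under 0.05. CLC and EPX are filled at 264 h alone, at a log2 of 4.44 to 8.02, and PRG2, IL5RA and SIGLEC8 are filled in KO at 72 h alone.

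At 72 h, 4 of the 8 members were called higher in KO (PRG2, PRG3, IL5RA and SIGLEC8) and 1 in WT (CCR3), with 0 called lower. This is against a broad response, in which 11.6% of genes were called higher and 8.47% lower in KO, and 9.26% higher and 9.04% lower in WT. The median log2 change over the members was 1.13 in KO and 0.53 in WT, against 0.01 and 0 over all genes. The KO calls fell to 0 without F4 or without A12, to 1 with batch 1 alone (IL5RA) and to 1 with the failed library included (PRG2). That library was above the 3 other KO libraries in DMSO at 72 h for PRG2 (0.617 CPM) and IL5RA (1.27 CPM), and within their range for PRG3 (0.732 CPM) and SIGLEC8 (3.16 CPM). For PRG3 the upper part of that range is from A12 (0.677 and 0.858 CPM). The passing library of the same clone, F4, was at 0.158 CPM, well below the failed library. In WT the count was 3, with PRG2 and PRG3 added, when the pre-treatment labels were exchanged (adjusted p of PRG2 = 0.0398, of PRG3 = 0.0147) or those libraries left out (0.0355 and 0.0107), within ranges over the alternatives of 0.000106 to 0.792 and 0.00068 to 0.88. It was 0 without A7 and 2 (PRG2 and PRG3) without C4.

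Whether the change with Aza was larger at 264 h than at 72 h was tested as an interaction. CLC passed it in both genotypes, with a log2 difference of 5.96 in KO (SE 1.36, adjusted p = 0.00892) and 8.40 in WT (SE 1.96, adjusted p = 0.0169). EPX did so as well, at 4.15 in KO (SE 0.90, adjusted p = 0.0049) and 5.99 in WT (SE 1.59, adjusted p = 0.0293). Of all genes, 5.48% were called higher in this comparison in KO and 4.00% in WT. CLC and EPX had passed the filter on low counts only through their Aza libraries of 264 h. PRG3 had a log2 of 1.73 in KO (SE 0.61, adjusted p = 0.0721) and 3.00 in WT (SE 1.14, adjusted p = 0.138), and PRG2 of -0.72 (SE 0.92) and 0.25 (SE 1.21). At 72 h, PRG2 and PRG3 were already above every library without Aza in 3 of 4 clones. CLC was so in F4 and A12, at 6 and 9 counts, and EPX in none. The share of all genes so placed in 3 of 4 clones was not counted. Whether the members differ from each other in time course was not tested. The 2 calls in KO became 0 without A12 or with batch 1 alone and 1 (EPX) without F4, and the 2 in WT became 0 without A7 and 1 without any 1 of the other clones. With no clone term they became 1 (EPX) and 0. DMSO at 264 h against 72 h gave 0 calls among the 8 members by edgeR in either genotype, where 4.68% of genes were called in KO and 0.00544% in WT. At an unadjusted p under 0.05 there was 1 member in KO (IL5RA) and 0 in WT, and DESeq2 gave 0 in KO and adjusted no member in WT.

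**Figure D3:**
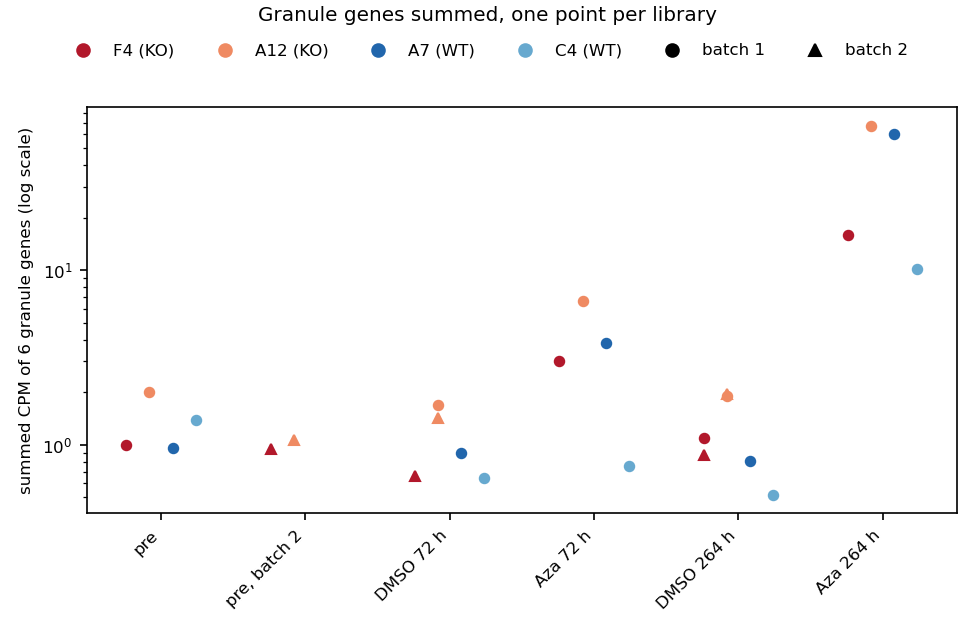
Summed CPM of the 6 granule genes in each library (y axis, logarithmic) by condition (x axis), with colours for the clones and triangles for batch 2. At 264 h with Aza, A12 and A7 lie at 67.2 and 60.7 CPM and F4 and C4 at 15.9 and 10.2 CPM, all above the 0.517 to 2.01 CPM of libraries without Aza.

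Among the clones, the summed CPM of the 6 granule genes at 264 h with Aza was 15.9 in F4, 67.2 in A12, 60.7 in A7 and 10.2 in C4, so that each genotype held 1 clone with a high and 1 with a low level. At 72 h it was 3.03 in F4, 6.68 in A12, 3.83 in A7 and 0.753 in C4, and the C4 value lay inside the range without Aza (0.517 to 2.01). For CLC, PRG3 and PRG2 the clones stood in the order A12, A7, F4, C4 from high to low at 264 h, and for EPX in the order A7, A12, C4, F4. The highest clone exceeded the lowest by 12.8 times for CLC, 9.17 times for EPX, 8.21 times for PRG3 and 5.98 times for PRG2. The receptor genes IL5RA, SIGLEC8 and CCR3 differed by at most 1.93 times between clones at 264 h, and ADGRE1 by 3.89 times.

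Set against DMSO of the same clone at 264 h, CLC counts were higher by 192 times in F4 (228 against 3 counts; 95% exact interval 64.8 to 937, counting error only), 184 times in A12 (920 against 12; 105 to 358), 569 times in A7 (595 against 1; 102 to 22500) and 74.4 times in C4 (71 against 1; 12.9 to 2980). DMSO counts of F4 and A12 are summed over 2 libraries, 1 from each batch, and those of A7 and C4 come from 1. The intervals overlap, and the few DMSO counts limit each of the ratios. The ratio for EPX was 10.4 in F4 (6.29 to 17.8), 50.2 in A12 (27.6 to 102), 125 in A7 (57.4 to 343) and 58.1 in C4 (15.7 to 486). F4 thus lay below A12 and A7 beyond counting error for EPX. The ratio for PRG3 was 11.9 in F4 (7.27 to 20.3), 17.8 in A12 (13.8 to 23.1), 31.6 in A7 (15.8 to 73.9) and 66.0 in C4 (11.4 to 2650), with overlapping intervals. A12 had the highest PRG3 level with Aza at 264 h and also the highest in DMSO at 264 h (1.13 CPM). Which clone had the highest ratio cannot be told from these intervals. For PRG2 it was 3.65 in F4 (1.92 to 7.06), 10.2 in A12 (6.22 to 17.6), 21.7 in A7 (7.11 to 108) and 1.47 in C4 (0.606 to 3.69), and C4 was the clone whose interval held 1.

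These clone differences were tested in a model with a term for each clone in each state, in which every Aza state is 1 library and is assumed to vary like the states with more. No member passed by edgeR. The Aza change of EPX at 264 h was larger in A12 than in F4 by a log2 of 2.31 (SE 0.50, unadjusted p = 9.99e-05, adjusted p = 0.0765); with no filter on low counts it was called. For PRG2 the change in C4 minus that in A7 was a log2 of -3.30 at 72 h (SE 0.94, adjusted p = 0.968) and -2.53 at 264 h (SE 0.87, adjusted p = 1), and it was called at 72 h with batch 1 alone. For CLC the difference at 264 h was -0.43 between A12 and F4 (SE 0.68) and -1.18 between C4 and A7 (SE 1.47). Over all genes, 0.0163% were called between the KO clones at 72 h and 0.0707% at 264 h, and 0% between the WT clones at both times. At an unadjusted p under 0.05 there were 0 and 1 members (EPX) between the KO clones and 2 (CLC and PRG2) and 1 (PRG2) between the WT clones, and DESeq2 called 0 in each.

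Between genotypes, no member passed the test of a difference in its change with Aza: 0 of 8 were called by edgeR at 72 h or at 264 h, 0 by DESeq2, and 0% of all genes at either time. At an unadjusted p under 0.05 there was 1 member at each time, IL5RA at 72 h (log2 1.14 higher in KO, SE 0.55) and EPX at 264 h (log2 of -2.13, lower in KO, SE 0.96, unadjusted p = 0.0401). For CLC the difference at 264 h was -0.79 (SE 1.55), an error wide enough that a several-fold difference could not be detected. In the levels themselves, KO against WT gave 0 calls in each of the 4 conditions compared, with 4 members tested before treatment, 5 with Aza at 72 h, 3 in DMSO at 264 h and 6 with Aza at 264 h. There were 0 at an unadjusted p under 0.05 and 0 by DESeq2. With no filter on low counts 1 member was called with Aza at 72 h (PRG3) and 1 with Aza at 264 h (RNASE2). The shares of all genes called were 0.0543%, 0.190%, 0.208% and 0.0488%. At 264 h with Aza the KO minus WT log2 difference was 0.88 for CLC (SE 1.24), -1.44 for EPX (SE 1.04) and 1.00 for PRG3 (SE 1.05), in groups of 2 clones that overlapped for all 3 genes.

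IL5RA (ENSG00000091181.15, hg19 chr3:3111233-3168297, minus strand) encodes the alpha chain of the interleukin 5 receptor, which pairs with the beta chain shared with the GM-CSF receptor. It was above the floor in every library, at 0.412 to 3.60 CPM without Aza (12 to 102 counts, median 0.923 CPM). The highest of all was the pre-treatment library labelled A7, at 3.60 CPM, against 1.72, 1.80 and 1.45 CPM in those of F4, A12 and C4. At 72 h it was at 0.412 to 0.961 CPM in the 5 DMSO libraries and at 1.18 CPM in F4, 1.57 in A12, 1.23 in A7 and 1.27 in C4 with Aza. At 264 h it was at 0.547 to 1.08 CPM in DMSO and at 1.39 CPM in F4, 1.87 in A12, 2.20 in A7 and 1.55 in C4 with Aza. In batch 2 the pre-treatment libraries, also labelled DMSO, were at 0.850 CPM in F4 and 1.07 CPM in A12. At each time the 4 Aza libraries lay above all DMSO libraries of that time, and within the range of the 6 pre-treatment libraries. The share of all genes that lay above the DMSO libraries in this way was not counted. The call was made in KO at 72 h alone (log2 1.58, SE 0.41, adjusted p = 0.00663), and it was lost with the failed library added (log2 0.86, adjusted p = 0.203) and without F4 (0.0993) or A12 (0.471). At 264 h the log2 was 1.10 in KO (SE 0.34, adjusted p = 0.448) and 1.32 in WT (SE 0.36, adjusted p = 0.127), and in WT it was called when the pre-treatment labels were exchanged (log2 1.39, adjusted p = 0.0244), when those libraries were left out (1.36, 0.0112), without C4 (1.98, 0.0245) and with no filter on low counts, within 0.0111 to 0.951 over the alternatives.

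CCR3 (ENSG00000183625.10, hg19 chr3:46205096-46308197, plus strand) encodes the eotaxin receptor that draws eosinophils into tissue. Without Aza it was at 0.106 to 0.563 CPM (3 to 15 counts, median 0.285 CPM). At 72 h with Aza it was at 0.709 CPM in F4, 1.11 in A12, 1.64 in A7 and 1.03 in C4, and at 264 h at 0.365, 0.343, 0.523 and 0.271 CPM. CCR3 was the 1 member of the 8 tested whose 4 Aza libraries at 72 h all lay above the 17 without Aza, as 3.39% of genes did, and at 264 h all 4 were back inside that range. It rose in WT at 72 h (log2 1.66, SE 0.45, adjusted p = 0.0109; 0.0961 without A7 and 0.088 without C4, range over alternatives 0.00302 to 0.0961). In KO at 72 h the log2 was 0.99 (SE 0.50, adjusted p = 0.173), and the difference between genotypes did not pass (log2 -0.67, SE 0.68, unadjusted p = 0.334). The changes at 264 h were 0.13 in KO (SE 0.52) and 0.05 in WT (SE 0.53).

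SIGLEC8 (ENSG00000105366.11, hg19 chr19:51954101-51961710, minus strand) encodes an inhibitory lectin of eosinophils and mast cells. It was expressed in every library, at 1.72 to 4.02 CPM without Aza (52 to 159 counts, median 3.07). With Aza it was at 4.45 CPM in F4, 5.00 in A12, 3.65 in A7 and 2.93 in C4 at 72 h and at 3.10, 4.19, 2.44 and 2.74 CPM at 264 h. The KO libraries of 72 h stood above the 3 of KO in DMSO (3.07 to 3.50 CPM), and the gene was called there at a log2 of 0.64 (SE 0.23, adjusted p = 0.0471). The call was lost in 8 of 13 alternatives, at log2 values of 0.58 to 0.64 throughout and adjusted p from 0.0202 to 0.549, among them 0.22 without F4 and 0.549 without A12. In WT at 72 h the log2 was 0.49 (SE 0.23, adjusted p = 0.158).

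ADGRE1 (ENSG00000174837.10, hg19 chr19:6887577-6940470, plus strand) encodes the human counterpart of mouse F4/80, an adhesion receptor that marks eosinophils in people. It was at 0.0710 to 0.534 CPM without Aza (2 to 16 counts), at 0.0788 to 0.186 CPM with Aza at 72 h and at 0.152 to 0.593 CPM at 264 h, and the highest of these was A7 at 264 h. The log2 change was -1.18 in KO (SE 0.87) and -1.45 in WT (SE 0.70, adjusted p = 0.167) at 72 h, and -0.68 (SE 0.69) and 0.69 (SE 0.66) at 264 h. None passed the test.

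**Figure D4:**
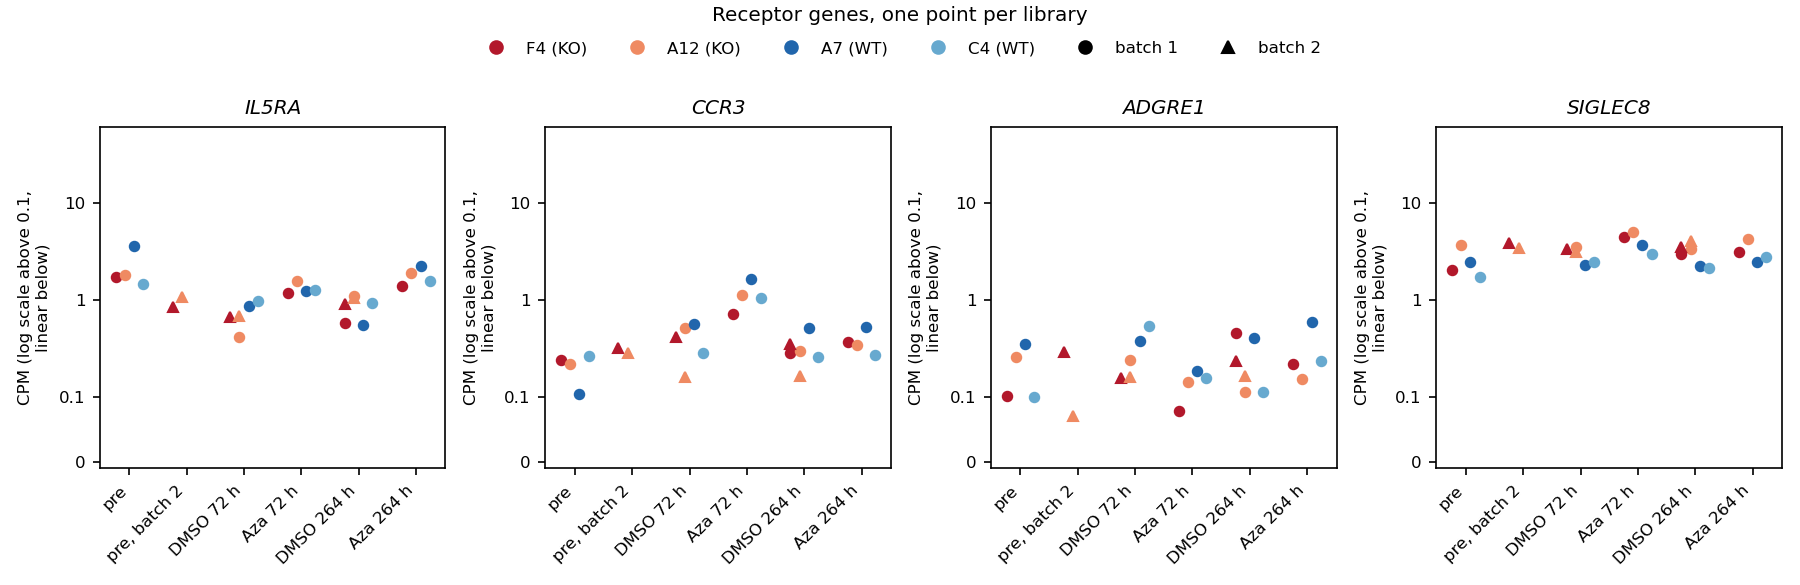
CPM of the 4 receptor genes in each of the 25 libraries (y axis, logarithmic above 0.1 and linear below), by condition (x axis), with 1 point per library, colours for the clones and triangles for batch 2. CCR3 stands at 0.709 to 1.64 CPM with Aza at 72 h and at 0.271 to 0.523 CPM at 264 h, while SIGLEC8 lies between 1.72 and 5.00 CPM in all libraries.

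Levels of different genes were compared per kilobase of exon. PRG2 was divided by all its 1838 exon bases, of which 791 are shared with another gene. Reads over the shared bases may be missing, so the place of PRG2 in the orders below is uncertain. Without Aza, SIGLEC8 led with a median of 0.967 CPM per kilobase, followed by PRG3 at 0.356, IL5RA at 0.273, PRG2 at 0.171, RNASE3 at 0.115, CLC at 0.112, CCR3 at 0.0781, EPX at 0.0712, ADGRE1 at 0.0631 and RNASE2 at 0.0379. The ranges of neighbours in this order overlap over the 17 libraries. At 264 h with Aza, CLC led with a median of 22.9 CPM per kilobase over the 4 clones (range 4.32 to 55.2), followed by PRG3 at 7.27 (2.80 to 23.0), EPX at 2.41 (1.11 to 10.1), SIGLEC8 at 0.922 (0.770 to 1.32) and PRG2 at 0.903 (0.294 to 1.76). The ranges over clones overlap between neighbours, but within each of the 4 clones CLC was above PRG3, PRG3 above EPX and EPX above SIGLEC8, with PRG3 and EPX closest in A7 (10.6 and 10.1). SIGLEC8 was above PRG2 in 2 of the 4 clones. No test was made between genes. IL5RA followed at 0.505, CCR3 at 0.0970 and ADGRE1 at 0.0608 CPM per kilobase, and RNASE2 and RNASE3, at 0.178 and 0.128, rest on few counts.

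Of the regulators that direct eosinophil formation, CEBPE, a C/EBP factor needed for granule genes of granulocytes, showed the largest change at 72 h. It was at 0.148 to 1.62 CPM in the 17 libraries without Aza, at 8.23 CPM in F4, 19.3 in A12, 11.4 in A7 and 6.58 in C4 with Aza at 72 h, and at 1.13, 3.35, 2.09 and 0.657 CPM at 264 h. The clones stood in the order A12, A7, F4, C4 at both times, as for CLC, PRG2 and PRG3 at 264 h but not for EPX. CEBPE had this order without Aza too, in DMSO of batch 1 at 264 h (1.16, 0.474, 0.343 and 0.148 CPM). The share of all genes with this order was not counted, and a link between CEBPE and the members was not tested. CEBPE rose at 72 h, with a log2 change of 4.59 in KO (SE 0.39, adjusted p = 5.22e-08) and 4.2 in WT (SE 0.40, adjusted p = 2.37e-07). At 264 h the log2 change was 1.5 in KO (SE 0.38, adjusted p = 0.252) and 2.11 in WT (SE 0.51, adjusted p = 0.0709). GATA1 rose at 72 h by 0.53 in KO (adjusted p = 5.41e-05) and 0.58 in WT (adjusted p = 7.84e-06), and at 264 h in WT by 0.37 (SE 0.08, adjusted p = 0.0288), where KO had 0.17 (adjusted p = 0.715). ZFPM1, which encodes the GATA1 cofactor FOG1, fell at 72 h by 0.41 in KO and by 0.39 in WT on the log2 scale (adjusted p = 0.00183 and 0.00155). SPI1 rose at 72 h by 0.43 (adjusted p = 0.00188) and 0.27 (adjusted p = 0.0395), and GATA2 fell in WT by 0.29 (adjusted p = 0.0432) with a log2 of -0.14 in KO (adjusted p = 0.359). CEBPA, expressed at 0.275 to 2.56 CPM without Aza, passed no test. Of 11 regulators, 5 were called higher and 1 lower in KO at 72 h and 4 and 2 in WT, and at 264 h 0 in KO and 1 higher in WT. Over all genes at 72 h, 11.6% were called higher and 8.47% lower in KO, and 9.26% and 9.04% in WT. At 264 h, 0.0816% were called higher in KO and 0.364% in WT.

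Of other receptors and effectors of eosinophils, none of those tested was called at 264 h. Over all genes, 0.0816% were called higher in KO and 0.364% in WT at that time. With so few calls, 0 in a short list does not set it apart from other genes. At 72 h the shares were 11.6% higher and 8.47% lower in KO, and 9.26% and 9.04% in WT. Of 12 further receptor and signalling genes, 8 were tested and 0 were called at 264 h in either genotype, with a median log2 of 0.06 in KO and 0.40 in WT. At 72 h, 3 rose and 1 fell in each genotype: CSF2RB, the shared beta chain, by a log2 of 0.64 in KO and 0.39 in WT, IL1RL1, the interleukin 33 receptor, by 2.77 and 2.13, FPR1, a formyl peptide receptor, by 1.27 and 1.30, and P2RY14, a nucleotide sugar receptor, with -2.44 and -1.38 (adjusted p of 0.0259 or less in all). CSF2RA, IL3RA and IL9R are listed at 0 in all 25 libraries; each has a copy on both X and Y, and how reads that fit both were counted is uncertain. Of 12 lipid and other effector genes, 8 were tested and 0 were called at 264 h, with medians of 0.09 and -0.10. At 72 h, 2 were called higher and 0 lower in KO, with a median of -0.12, and 2 higher and 2 lower in WT, with a median of 0.02. ALOX5, the enzyme that starts leukotriene synthesis, rose by 0.73 in KO and 0.56 in WT, CD9, a tetraspanin, rose by 2.09 in KO, and LGALS12, a galectin, rose by 0.26 in WT. HPGDS, a prostaglandin D synthase, and OLIG2, a transcription factor, were lower in WT (log2 -0.64 and -1.25, adjusted p = 0.00946 and 0.000514). ALOX15 had at most 16 counts in any library.

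Markers of other blood cells were read in the same libraries. Here too the shares over all genes at 264 h were 0.0816% higher in KO and 0.364% in WT. A count of 0 in a short list at 264 h therefore does not set it apart from other genes. At 72 h, 11.6% of all genes were called higher and 8.47% lower in KO, and 9.26% and 9.04% in WT. Of 12 neutrophil genes, 6 were tested and 0 called at 264 h, and their summed level was 5.61 to 6.75 CPM with Aza and 5.29 to 7.49 CPM with DMSO at 264 h. Of these, ELANE and PRTN3 had at most 3 and 4 counts in any library, and MMP8 and DEFA4 were listed at 0 in all. Of 8 monocyte genes, 2 were tested and 0 called, at 40.1 to 50.3 CPM in sum with Aza and 36.4 to 51.6 CPM with DMSO. Of 12 mast cell and basophil genes, 11 were tested, and HDC, the enzyme that makes histamine, was called at 264 h in KO (log2 1.78, SE 0.24, adjusted p = 0.00297), at 11.3 CPM in F4 and 17.3 in A12 against 3.71 to 6.28 CPM in DMSO. In WT at 264 h HDC had a log2 of 1.11 (SE 0.30, adjusted p = 0.153), at 6.35 CPM in A7 and 2.71 in C4. Its change was larger at 72 h, with a log2 of 2.68 in KO and 2.48 in WT (adjusted p = 1.18e-06 and 6.42e-06). The summed level of the mast cell and basophil list was 188 to 208 CPM in KO with Aza and 187 to 229 CPM with DMSO, and 84.9 to 101 and 96.1 to 112 CPM in WT. Of 10 erythroid genes, HBA1 and HBE1 rose in both genotypes at 264 h and HBB in WT (reads of HBA1 cannot be told surely from those of its near copy HBA2), and the summed level was 362 to 433 CPM in KO with Aza against 100 to 217 CPM with DMSO and 1190 to 1490 against 426 to 575 CPM in WT. The highest levels in this list were of HBG2 and HBA2 (up to 682 and 409 CPM), neither called at 264 h. Summed levels follow the most abundant genes of a list, such as LYZ (up to 55.2 CPM) for monocytes and FCER1A (up to 143 CPM) for mast cells and basophils. HBE1, embryonic epsilon globin, was at 5.40 CPM in F4, 8.61 in A12, 12.0 in A7 and 10.3 in C4 at 264 h with Aza (log2 4.11 in KO and 2.52 in WT, adjusted p = 9.09e-05 and 0.00207). Erythroid genes therefore moved at 264 h beside CLC, EPX and PRG3, and their part in the result was not tested. Of 6 megakaryocyte genes, 4 were tested and 0 called at 264 h. At 72 h, when PRG2, PRG3, IL5RA, SIGLEC8 and CCR3 were called, genes of these other lineages were called too. In KO they were 3 neutrophil genes (CTSG, LTF and LCN2; median of the list 1.18), with a summed level of 10.9 to 11.6 CPM against 5.52 to 6.81 CPM in DMSO, and in WT LTF alone, at 8.28 to 10.7 against 5.89 to 6.09 CPM. CSF1R, a monocyte receptor, rose by a log2 of 2.25 in KO and 1.62 in WT, while the summed monocyte level was 32.2 to 39.9 against 33.2 to 37.9 CPM in KO and 35.1 to 39.1 against 42.9 to 45.3 CPM in WT. Of the mast cell and basophil genes, 4 were higher and 2 lower in KO (203 to 259 against 179 to 208 CPM in sum) and 3 higher and 1 lower in WT (112 to 124 against 111 to 130 CPM). Erythroid genes were higher in 5 cases in KO and 2 in WT, and megakaryocyte genes in 0 and 3. Their part in the 72 h calls was not tested.

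Across the 25 libraries the log2 CPM of CLC correlated with that of EPX at 0.903 and of PRG3 at 0.852, and EPX and PRG3 at 0.774. These are descriptions over libraries that share clones and 4 high samples. IL5RA, CCR3 and SIGLEC8 correlated with CLC at 0.379, 0.0789 and 0.137. Among 13610 other genes with a mean log2 CPM of at least 0, the profiles most like CLC were those of PLD1 and TCHP (Pearson r = 0.739 each) and PTAFR (0.733), and for EPX PTAFR (0.727), PLD1 (0.722) and HBD (0.709). PTAFR, the receptor for platelet-activating factor, was at 4.14 to 7.25 CPM at 264 h with Aza and at 2.09 to 4.88 CPM in libraries without Aza. PRG2 was most like CALB1 (0.795), GCKR (0.757) and PTK2B (0.741), and CEBPE was the fifth in that order (0.714). PRG3 was most like CALB1 (0.735) and MSN (0.730), IL5RA like TP53INP1 (0.813), CCR3 like PHACTR1 (0.919), SIGLEC8 like NES (0.880) and ADGRE1 like PPP2R3C (0.698).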

How the data were processed

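RNA of TF-1 cells was sequenced from stranded mRNA libraries, per the labels' protocols. The deposited table holds whole-number counts for 57773 genes, which featureCounts 1.6.2 had made from read pairs on GENCODE 19 exons with no strand option, per the file headers; STAR 2.6.1d, cutadapt, FastQC, DESeq2 and hg19 (GRCh37) are named in the submitters' processing notes. From these counts, TMM-scaled CPM and log2 CPM (prior count 2) were derived here with edgeR 4.0.16 in R 4.3.3. After filterByExpr, 18391 genes of the 25 libraries entered 1 robust quasi-likelihood model with terms for group, clone and batch (11 residual degrees of freedom). Clone differences came from a model of clone by state (5 residual degrees of freedom), and KO against WT from fits of 2 libraries each in batch 1. The 18 comparisons were each adjusted by Benjamini-Hochberg over all genes tested, with calls at 0.05.

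Libraries with 1 clone name are labelled as the same cells, which pairs them across conditions, and the correlations given in the report are the check of that pairing. The check went against the labels for the WT pre-treatment libraries, and the main model kept those labels as given. The 18 same-group pairs of libraries all differed by more than sampling noise (chi-square of 12.3 or more per degree of freedom, genes with at least 20 counts in a pair). Each pair is of different clones or of different batches, so this does not tell whether libraries of a clone came from separate cultures. The fit was tested on simulated data that held no clone or batch differences, so that test does not cover the clone differences seen here. All 10 members are named, with 6 regulators, the listed genes called at 264 h and the genes of most similar profile; further list genes, given for 72 h or for low counts, were chosen after their values were seen. The members and lists were chosen with earlier results of these data known. Alternatives were DESeq2 1.42.0, RLE scaling, no filter, no clone term, batch 1 alone, the failed library added, WT pre-treatment labels exchanged or those libraries left out, 1 genotype alone, each clone left out, and a prior count of 0.5.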

Additional observations from a re-analysis of the deposited data

Results flagged for a closer look

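The library of clone F4 in DMSO at 72 h that failed quality control, used in no comparison, held PRG2 at 0.617 CPM (16 counts) and IL5RA at 1.27 CPM (33 counts). The 3 passing KO libraries of that condition were at 0.0633 to 0.343 CPM for PRG2 and 0.412 to 0.677 CPM for IL5RA. They were singled out because the lower 95% Poisson limit of the failed library's count lay above all 3 values; that limit covers the counting error of this library alone, takes the other libraries' low counts as exact and is no test of a difference. In the KO libraries in DMSO at 264 h, the only group of 4, none of the 10 members had a library that stood apart by Dixon's criterion.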

How the results depend on the processing

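Of 187 counts of called members recomputed under the alternatives for 18 comparisons, 151 stayed within 1.5 times the count reported. These include comparisons with 0 members called, in which 0 mostly stayed 0. Where members were called higher with Aza, the count held in 8 of 13 alternatives in KO at 72 h and 10 of 13 in KO at 264 h. It held in 7 of 13 in WT at 72 h and 8 of 13 in WT at 264 h. For the difference between times it held in 9 of 13 in KO and 4 of 13 in WT. Without the replicate block (no clone term), the members called higher with Aza were 1 in KO at 72 h, 0 in KO at 264 h and 1 in WT at 264 h, and those whose change was larger at 264 h than at 72 h were 1 in KO and 0 in WT; it moved no other count. With 1 clone left out in turn, the counts ran from 0 to 4 in KO at 72 h, 0 to 4 in KO at 264 h, 0 to 2 in WT at 72 h and 1 to 5 in WT at 264 h, and for the difference between times from 0 to 3 in KO and 0 to 1 in WT. With batch 1 alone, 1 member was called in KO at 72 h, 0 and 1 for the difference between times in KO and WT, and 1 (PRG2) between the WT clones at 72 h. With the failed library, 1 was called in KO at 72 h and 1 for the difference between times in WT. DESeq2 called 2 in WT at 72 h. With no filter, 3 were called in WT at 72 h, 5 in WT at 264 h, 4 for the difference between times in WT, and 1 each between the KO clones at 264 h (EPX), between genotypes with Aza at 72 h (PRG3) and at 264 h (RNASE2). With the WT pre-treatment labels exchanged or those libraries left out, 3 were called in WT at 72 h. With WT libraries alone, 1 was called at 264 h and 1 for the difference between times. Over all genes, the 18 calls in KO at 264 h ran from 0 (without A12) to 172 (no filter), the 92 in WT at 264 h from 4 (no clone term) to 355 (without the WT pre-treatment libraries), the 3694 in KO at 72 h from 411 (without A12) to 4782 and the 3366 in WT at 72 h from 1089 (with the failed library) to 4386 (both without the WT pre-treatment libraries). The cause of these shifts was not tested, save that leaving out clones leaves fewer libraries. DESeq2 adjusted no member for DMSO at 264 h against 72 h in WT and gives no count there. No change of a called member with Aza against DMSO turned its direction under any alternative. Most DMSO values of CLC, EPX, PRG2 and CCR3 rest on under 20 counts, and RNASE2 and RNASE3 lie near the floor, so their ratios are imprecise, and each Aza value per clone is 1 library. With a prior count of 0.5, the mean log2 CPM in KO with Aza at 264 h moved for RNASE2 (-3.57), CCR3 (-1.43) and ADGRE1 (-2.32).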
